A study of Rattus norvegicus with 18 samples.

Results

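Sialidases and the enzymes that make sialic acid were followed through 3 muscles of the rat in experimental autoimmune myasthenia gravis (EAMG). The group was formed from 6 of the 14217 genes named on the arrays, namely Neu2, Neu1, Neu3, Gne, Nans and Cmas, and it holds every probe set annotated to 1 of these genes and to no other, 9 in all. A probe set is a group of short probes that together measure a transcript. The genes were selected on the lower EAMG signal of Neu2, the value already known when they were put together, so the EAMG values of the 6 genes are described here and not tested. Tests are given for the differences between control muscles and for other genes of sialic acid handling and of neighbouring pathways. The control arrays also enter the EAMG change of Neu2, and the members were chosen with earlier results of these data known. Tests of members between control muscles are therefore not fully independent of the choice. Female Lewis rats, 6 to 8 weeks old at the start, were immunized once with 40 μg of acetylcholine receptor (AChR) purified from Torpedo in complete Freund's adjuvant (CFA) that held a further 0.5 mg of mycobacterium per rat. The control rats received the same adjuvant without AChR, so both groups carried the inflammatory load of the adjuvant and differed by design in the receptor. Diaphragm (DIA), extensor digitorum longus (EDL, a leg muscle) and extraocular muscle (EOM, which moves the eye) were taken 6 weeks later, and each of the 6 groups of muscle and treatment had 3 arrays. By then, the paper reports, the EAMG rats had become weak and lost weight, while control rats gained weight. It states that it cannot uncouple these effects from the antibody attack. The RNA of each array was a pool of rats. Their number is given as 3, as 4 or as 4 to 5 in different places of the study's descriptions. The spread between arrays is a spread between pools from repeat runs of the experiment. The methods describe the 3 muscles as dissected from the rats, so arrays of different muscles may share animals. Tests between muscles do not pair such arrays, and results of the 3 muscles may not be independent.

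Sialic acids are acidic sugars that cap the sugar chains of glycoproteins and of gangliosides, the sialylated lipids of cell membranes. Gne starts their synthesis from UDP-GlcNAc, Nans condenses the resulting sugar with phosphoenolpyruvate, and Cmas activates the finished sialic acid in the nucleus so that sialyltransferases of the Golgi can attach it. Sialidases remove it again. Neu1 is the sialidase of the lysosome, Neu2 that of the cytosol, which was cloned from rat skeletal muscle, and Neu3 a membrane enzyme that prefers gangliosides. Mutations of human GNE cause a distal myopathy, and the receptor attacked in myasthenia is itself a glycoprotein.

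The stretches of genome before the start sites of the 3 sialidases are printed because these genes catalyse 1 reaction and differed in their signals. Each is 250 bases long and ends at the base before the start site in RefSeq's annotation of the rat assembly GRCr8, read along the strand of the gene. Neu2 lies at chr9:95711738-95711987 on the plus strand, Neu1 at chr20:3906384-3906633 on the minus strand and Neu3 at chr1:163560998-163561247 on the minus strand. Capitals mark the E-box letters CANNTG, to which muscle regulatory factors can bind, and the letters TATAAA of a TATA box.
Neu2: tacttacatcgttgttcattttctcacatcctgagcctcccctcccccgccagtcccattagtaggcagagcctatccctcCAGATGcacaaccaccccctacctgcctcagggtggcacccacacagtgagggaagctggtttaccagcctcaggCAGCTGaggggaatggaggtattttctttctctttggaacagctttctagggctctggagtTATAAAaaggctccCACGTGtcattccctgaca
Neu1: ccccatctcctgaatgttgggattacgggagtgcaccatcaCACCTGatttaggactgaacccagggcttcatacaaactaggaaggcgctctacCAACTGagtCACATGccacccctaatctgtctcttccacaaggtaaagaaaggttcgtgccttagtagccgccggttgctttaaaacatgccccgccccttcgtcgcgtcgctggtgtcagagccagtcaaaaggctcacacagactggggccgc
Neu3: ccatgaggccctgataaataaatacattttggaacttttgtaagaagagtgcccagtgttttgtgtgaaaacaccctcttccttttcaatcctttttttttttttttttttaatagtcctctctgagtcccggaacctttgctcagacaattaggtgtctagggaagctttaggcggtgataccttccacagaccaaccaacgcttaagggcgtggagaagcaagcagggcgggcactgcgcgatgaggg
The Neu2 stretch held 3 E-boxes, which began 169, 94 and 19 bases before the start, and a TATAAA that began 33 bases before it. The E-box nearest the start reads CACGTG, which clock and Myc-type factors can also bind. Neu1 also held 3 E-boxes, at 209, 155 and 146 bases before the start, with no TATAAA, and Neu3 held neither. Among 33469 RefSeq promoter stretches of the same length, 65.5% held an E-box, 11.5% held 3 or more, 12.9% held TATAAA and 5.59% held CACGTG, with both strands searched. The GC content was 53.2% for Neu2, 54.4% for Neu1 and 45.2% for Neu3, against 62.4% for Gne, 67.6% for Nans and 65.2% for Cmas and a median of 51.2% over all stretches. None of the 6 stretches held the full palindromic glucocorticoid element, which 0.012% of all stretches held. These are matches of letters, and the arrays did not measure binding to any of them.

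The values were GCOS signals, which are scaled intensities on a linear scale without a unit. Median signals lay between 128.7 and 162.5 on the 18 arrays, and 27.9% to 31.05% of probe sets reached 400, the lower limit that the methods set. A probe set was tested if it reached 400 on at least 1 array, which kept 12238 of 31042. The number of arrays limits the precision, since 3 against 3 arrays cannot give an exact two-sided permutation p under 0.1. Tests therefore come from limma, which borrows the spread across all probe sets, with p adjusted by Benjamini and Hochberg over all of those tested. All 12 genes that define skeletal muscle were measured in every group, and none of the 12 passed in EAMG in any of the 3 muscles, with 2 at an unadjusted p under 0.05 in each. Some arrays stood apart. The EDL EAMG array 2 had a summed signal of slow-fibre genes of 312000, against 105200 and 112400 on the other EDL EAMG arrays and 96160 to 116800 on the EDL control arrays. GAPDH, read at both ends of its transcript, had a 3'/5' ratio of 2.665 on DIA EAMG array 3 and at most 1.329 elsewhere, and poly-A spike signals were low on DIA EAMG array 2 and EOM EAMG array 2. EOM EAMG array 3 had a summed signal of 24260 for macrophage genes and 221600 for the genes that define muscle, against 7619 to 15760 and 280100 to 347900 on the other EOM arrays. In whole muscle, fewer cells of a type and less RNA per cell cannot be told apart.

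Neu2 was the only 1 of the 6 genes whose EAMG and control arrays were apart in all 3 muscles. Its signal was lower in EAMG than in control muscle on every array of all 3 muscles, 2.72-fold for DIA, 4.0-fold for EDL and 2.33-fold for EOM by the geometric means. In DIA the EAMG arrays read 961, 631 and 953 and the control arrays 2390.4, 1963 and 2467. The highest DIA EAMG array thus lay below the lowest control array by more than 2-fold. In EDL the EAMG arrays read 542, 215 and 509 and the control arrays 1979, 1276 and 1506. EDL EAMG array 2 was the lowest of all 18 and the only 1 under the limit of 400, and it is also the array with the high slow-fibre signal. In EOM the EAMG arrays read 413, 486 and 536 and the control arrays 1269, 1090 and 986. The groups did not overlap in any muscle.

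The log2 changes of Neu2 were -1.44 for DIA, -2.0 for EDL and -1.22 for EOM, each with an SE of 0.29. Group means were 848 ± 188 in DIA EAMG and 2274 ± 272 in DIA control, 422 ± 179.9 in EDL EAMG and 1587 ± 358 in EDL control, and 478 ± 61.8 in EOM EAMG and 1115 ± 143 in EOM control (SD, n = 3 each). Each muscle allows 9 ratios of an EAMG array to a control array. They spanned 0.256 to 0.489 for DIA, 0.109 to 0.425 for EDL and 0.325 to 0.544 for EOM. All 9 were 2-fold or more below 1 for DIA and EDL, and 8 of the 9 for EOM. Counted from the strongest decrease among all 12238 probe sets, Neu2 stood at place 56 in DIA, 9 in EDL and 38 in EOM. EAMG arrays lay below all control arrays in each of the 3 muscles for 230 probe sets, or 1.88% of those tested, and Neu2 is 1 of them. Since the change of Neu2 was known when the genes were chosen, these places describe it and support nothing further.

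**Figure D1:**
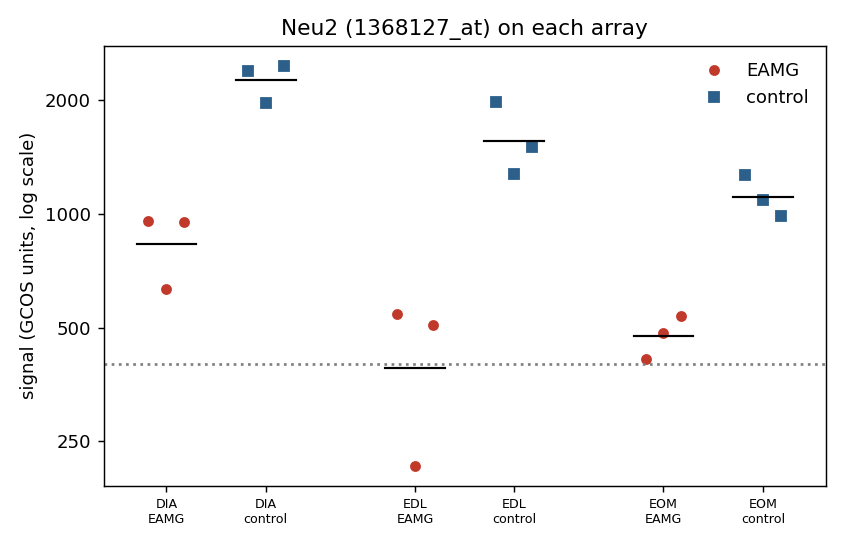
Signal of Neu2 (GCOS units, log axis) on each of the 18 arrays, with EAMG (circles) left of control (squares) in DIA, EDL and EOM, bars at the geometric mean of 3 arrays and a dotted line at 400. The 9 EAMG arrays lie between 215 and 961 and the 9 control arrays between 986 and 2467, and in each muscle the groups are apart.

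The changes of Neu2 differed in size between muscles by 0.78 for EDL over EOM, 0.22 for DIA over EOM and 0.56 for EDL over DIA, each with an SE of 0.41, and these differences were not tested. Without EDL EAMG array 2 the change in EDL was -1.57. Without the low poly-A arrays it was -1.24 in DIA and -1.24 in EOM, and without DIA EAMG array 3 it was -1.54 in DIA. Without EOM EAMG array 3 it was -1.31 in EOM.

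Other markers moved beside Neu2, and their part in its lower signal was not tested. For the counts that follow, 2.68% of all probe sets tested passed in EAMG in DIA, 6.59% in EDL and 1.5% in EOM. Of 3 tested red blood cell genes, 3 fell in DIA, 1 in EDL and 3 in EOM. In EDL the changes of the 3 were -1.22 to -1.02, all at an unadjusted limma p under 0.05. The summed signal of that list was 2307 to 5505 in DIA EAMG against 13490 to 20190 in DIA control. It was 1422 to 2955 against 3890 to 5760 in EDL and 2239 to 3812 against 9027 to 12640 in EOM. The 9 fast-fibre genes had summed signals of 177000 to 192100 in DIA EAMG and 222400 to 234700 in DIA control, where 1 of 9 fell. In EDL they summed to 308800 to 327900 in EAMG and 328600 to 413200 in control, and in EOM the groups overlapped. None of the 9 lay above 0 in DIA or EDL, and 1 did in EOM. Of 10 slow-fibre genes, 1 rose in EDL, and all 10 lay above 0 there with a median of 0.59. Among the EDL arrays, all 10 were highest on EDL EAMG array 2. Their sum was 312000 on that array, against 105200 and 112400 on the other EDL EAMG arrays and 96160 to 116800 in EDL control. Of 7 genes of fat and gland cells, 1 rose in EOM, and their sum was 11090 to 12040 in EOM EAMG and 7489 to 7554 in EOM control. None of 10 tested macrophage genes passed in EAMG in any muscle, with 1, 2 and 0 at an unadjusted p under 0.05 in DIA, EDL and EOM. The macrophage list summed to 11840 to 16220 in DIA EAMG and to 7658 to 11170 in DIA control.

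The control muscles differed in Neu2 as well. Its order of level was DIA, EDL and EOM from high to low. EOM control was lower than DIA control by 1.03 on the log2 scale (SE 0.29, limma adjusted p = 0.0181), and all 3 EOM arrays lay below all 3 DIA arrays, as arrays of these groups did without overlap for 44.3% of probe sets in either direction. The neighbours in that order did not pass, since EOM control minus EDL control was -0.49 (adjusted p = 0.186, 95% interval -1.11 to 0.12) and DIA control minus EDL control 0.54 (adjusted p = 0.193, 95% interval -0.08 to 1.15). The call between EOM and DIA was lost when DIA control array 1 or 3 or EOM control array 2 or 3 was left out, with adjusted p up to 0.0695. It was also lost with no signal minimum, where the same difference had an adjusted p of 0.0693. Of all probe sets tested, 21.3% passed between EOM and DIA, 41.4% between EOM and EDL and 24.8% between DIA and EDL, so differences between these muscles are common on the arrays. Groups did not overlap for 57.2% of probe sets between EOM and EDL and 42.1% between DIA and EDL. In EAMG the order of the means was DIA, EOM and EDL, and EDL and EOM arrays overlapped.

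Neu1, the lysosomal sialidase, had 2 probe sets and only the brighter was tested. In EDL its arrays read 436, 297 and 461 in EAMG and 244, 292 and 366 in control, and the groups overlapped. The log2 changes were 0.19 in DIA, 0.40 in EDL and 0.02 in EOM (SE 0.19 each), and DIA arrays read 316, 299 and 222 in EAMG and 253, 218 and 257 in control. In EOM the EAMG arrays at 438, 324 and 406 spanned the control arrays at 354, 382 and 407. The dimmer probe set, 1375684_at, stayed between 87.2 and 249 on all arrays and gave changes of -0.32, 0.48 and 0.02 (SE 0.25), so the probe sets of Neu1 differed in sign in DIA and had the same sign in EDL and EOM. Between control muscles, Neu1 was higher in EOM than in DIA by 0.65 (SE 0.19, limma adjusted p = 0.024), with the arrays apart, and was 0.36 above EDL without passing (adjusted p = 0.15). The call between EOM and DIA was lost without DIA control array 2 or EOM control array 2 or 3, with adjusted p up to 0.0869. It was also lost with no signal minimum, where the same difference had a limma adjusted p of 0.0922. The brighter probe set reached the signal minimum on only 5 of 18 arrays. These were of EDL EAMG, EOM EAMG and EOM control, and none was of DIA. The call therefore rests mostly on signals under the minimum. The dimmer probe set differed between EOM and DIA by -0.06 (SE 0.25).

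Neu3, which acts on gangliosides at the membrane, did not reach 400 on any array and was not tested. Its highest signal was 291, on a DIA control array, and its lowest was 104, on an EOM control array. Log2 changes in EAMG were -0.11 in DIA, -0.21 in EDL and 0.05 in EOM (SE 0.28 each), and the EAMG and control arrays overlapped in each muscle. The 3 EOM control arrays, at 157, 104 and 156, lay below the 3 DIA control arrays, at 291, 189 and 193.

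The 3 synthesis enzymes had log2 changes nearer to 0 than Neu2 in every muscle. Gne, which carries out the first committed steps, read 398, 242 and 319 on DIA EAMG arrays and 439, 362 and 355 on DIA control arrays. It read 284, 302 and 304 in EDL EAMG, against 223, 406 and 380 in EDL control, and 389, 291 and 412 in EOM EAMG, against 333, 384 and 354 in EOM control. The groups overlapped in each muscle, with changes of -0.29, -0.13 and 0.01 (SE 0.22 each). Gne reached 400 on only 3 of 18 arrays, and none of its differences between control muscles passed. The largest of these was 0.24 between DIA and EDL (adjusted p = 0.455).

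Nans, the sialic acid phosphate synthase, had 3 probe sets that did not move alike. The brightest, 1372401_at, read 589, 608 and 642 in EOM EAMG and 537, 538 and 503 in EOM control, so the EOM groups were apart with a change of 0.22 (SE 0.10). In EDL its EAMG arrays read 551, 639 and 663, against 531, 554 and 537 in control, which overlapped. In DIA they read 417, 437 and 522, against 519, 525 and 496, a change of -0.17 (SE 0.10). The second, 1372402_at, gave 0.26, 0.05 and 0.05 (SE 0.18) in DIA, EDL and EOM with overlapping groups. The third, 1397963_x_at, carries the suffix used for probes that may also match other transcripts and never reached 400. In DIA it read 119, 106 and 112 in EAMG and 208, 135 and 141 in control, and so pointed the same way as 1372401_at there.

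The probe sets of Nans also disagreed between control muscles. By 1372402_at, Nans was higher in EOM than in DIA by 0.68 (SE 0.18, limma adjusted p = 0.0132) and lower in DIA than in EDL by 0.60 (adjusted p = 0.0254). Its control arrays read 313, 351 and 357 in EOM, 220.0, 228 and 190 in DIA and 293, 374 and 301 in EDL. By 1372401_at the same differences were 0.03 (adjusted p = 0.861) and -0.07 (adjusted p = 0.642), with an SE of 0.10. The EOM call of 1372402_at was lost without DIA control array 3 (adjusted p = 0.0588). The DIA call was lost without DIA control array 1 or 3 or EDL control array 2 (adjusted p up to 0.0993). Since 1372402_at reached 400 on only 2 arrays, both of EAMG, these calls rest on signals under the limit.

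Cmas, the CMP-sialic acid synthetase, was well above 400 on all 18 arrays and steady. It read 1538, 1723 and 1980.2 in DIA EAMG and 1678, 1689 and 1619 in DIA control. In EDL the EAMG arrays at 1938, 1898 and 1818 lay below the control arrays at 1959, 2031 and 1972, a change of only -0.08 (SE 0.11). In EOM they read 1847, 1688 and 2120, against 2318, 1921 and 2016 in control, a change of -0.15 (SE 0.11). Between control muscles, Cmas was 0.32 higher in EOM than in DIA (SE 0.11, limma adjusted p = 0.0557) with the arrays apart, and 0.26 lower in DIA than in EDL (adjusted p = 0.111). With array weights, a limma trend or a fit of the control arrays alone, the first of these passed, at adjusted p of 0.0136, 0.0431 and 0.0373.

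Over the 6 probe sets tested, EAMG and control arrays did not overlap for 1 in DIA, 2 in EDL and 2 in EOM. Among all probe sets tested these shares were 24.4%, 25% and 24.5%, and the rule that chose the genes used this contrast. Neu2 was in each count, joined by Cmas in EDL and by Nans 1372401_at in EOM. Apart from Neu2, the changes spanned -0.29 to 0.26 for DIA, -0.13 to 0.40 for EDL and -0.15 to 0.22 for EOM. In baseline tests, 3 of the 6 passed between EOM and DIA (21.3% of all), 1 between DIA and EDL (24.8%) and 0 between EOM and EDL (41.4%), where none had an unadjusted p under 0.05. Apart from that of Neu2, these calls were of Neu1 and Nans 1372402_at, which lay under 400 on most arrays. The control arrays are also part of the contrast that led to Neu2, so these counts describe the members.

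**Figure D2:**
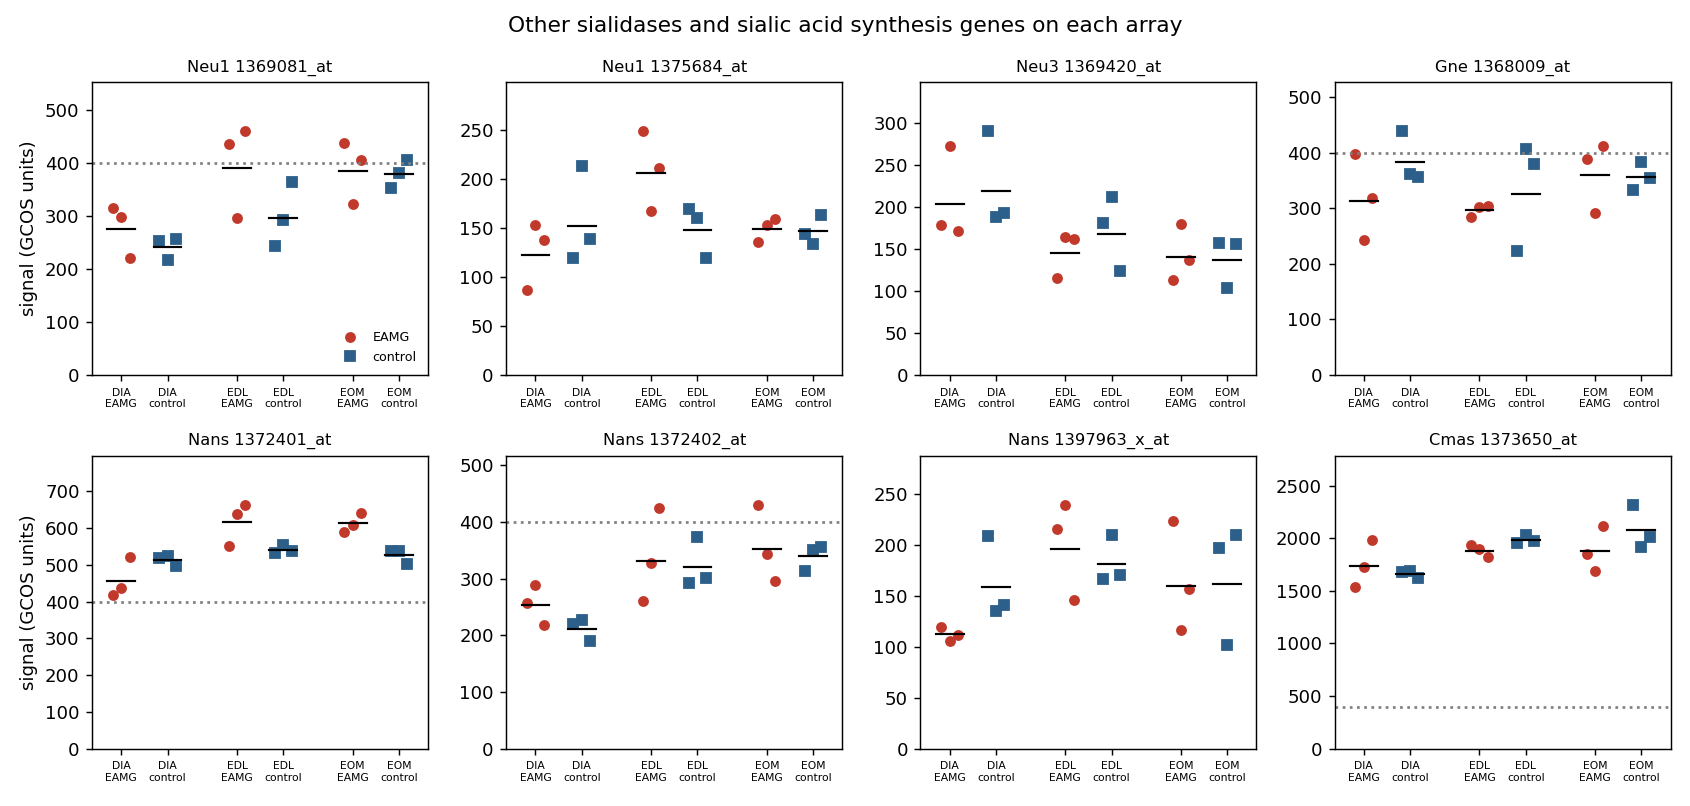
Signal (GCOS units, linear axes from 0) of the other 8 probe sets on each array, with EAMG (circles) left of control (squares), bars at the geometric mean of 3 arrays and a dotted line at 400 where it falls inside the panel. Neu3, the dimmer Neu1 probe set and Nans 1397963_x_at stay under 400, and Cmas runs from 1538 to 2318.

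**Figure D3:**
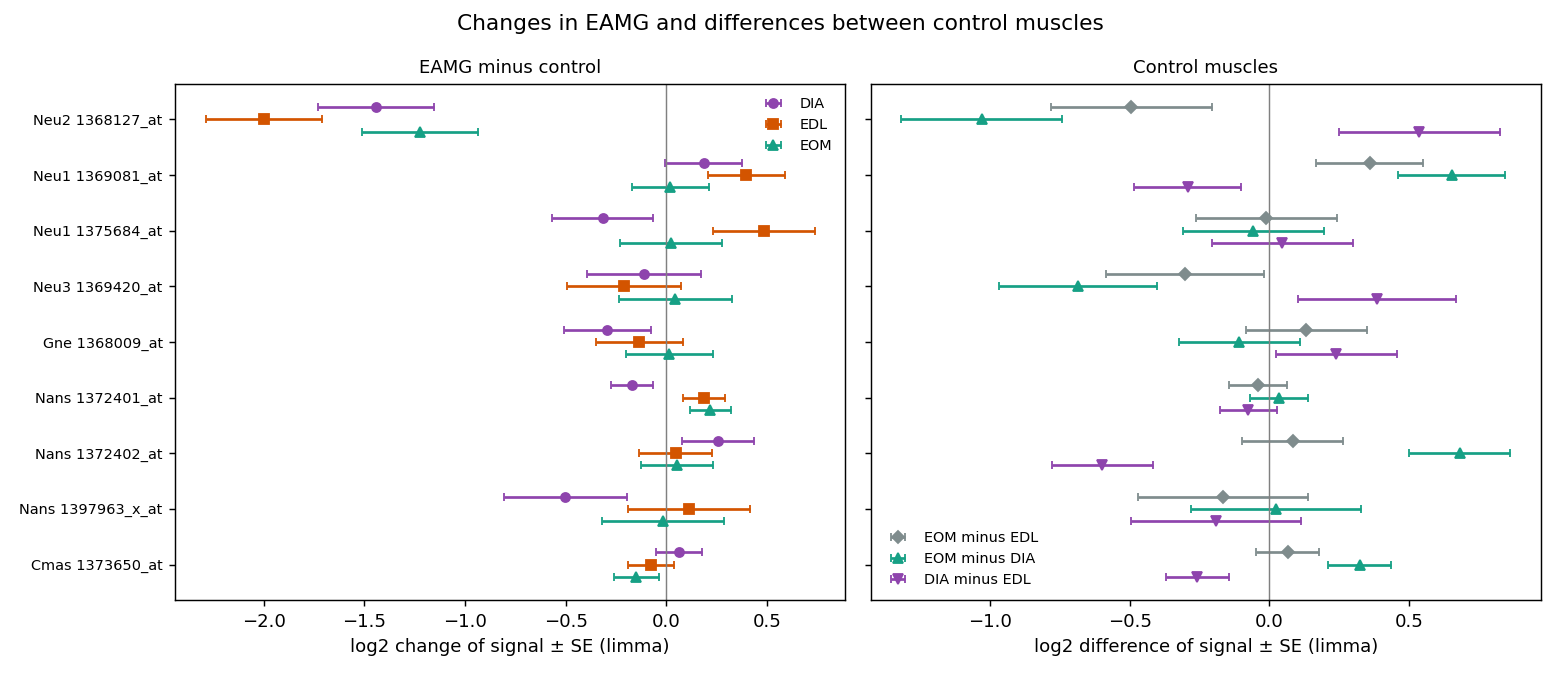
Log2 change in EAMG (left) and log2 difference between control muscles (right) of the 9 probe sets, with SE from limma. Neu2 lies at -1.44, -2.0 and -1.22 in EAMG, while the other probe sets that were tested lie between -0.29 and 0.40.

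Of all named probe sets tested, the signal most like that of Neu2 over the 18 arrays, after the mean of each muscle was taken off, was that of Entrep3, with a Pearson's r of 0.96. It was followed by Myoz3 at 0.95, Eif4e3 at 0.95, S100a1 at 0.94 and Chpt1 at 0.93. In all, 25 of 9799 named probe sets had an r above 0.9. The 18 points share 2 treatments and 3 muscles, so any transcript lower in EAMG in all muscles scores high. With the mean of each of the 6 groups taken off, which leaves only the spread between arrays of a group, r was 0.85 for Entrep3, 0.69 for Myoz3, 0.66 for Eif4e3, 0.73 for S100a1 and 0.44 for Chpt1. These genes were picked by the first r, which holds the same spread, so the choice partly sets these values. Myoz3, a Z-disc protein of fast fibres, read 3255, 2110 and 2680.1 in EDL EAMG and 5321, 5229 and 5510 in EDL control. The array lowest for Neu2 in EDL, EDL EAMG array 2, was also the lowest EDL array for Entrep3, Myoz3, Eif4e3, S100a1 and Chpt1. The genes were picked by r over these same arrays, so this match too is partly set by the choice. How far the values of r rest on this array, which also had the high slow-fibre signal, was not tested. The log2 changes of Myoz3 were -0.85, -1.02 and -0.68 in DIA, EDL and EOM. In the same order they were -0.54, -0.80 and -0.32 for S100a1, a calcium-binding protein of striated muscle, and -0.50, -0.75 and -0.41 for Chpt1, which makes phosphatidylcholine. They were -0.38, -0.44 and -0.25 for Entrep3 and -0.43, -0.60 and -0.39 for Eif4e3, a cap-binding protein. All of these were smaller in size than the changes of Neu2. The other members were far from it. With muscle means taken off, r was -0.37 for Neu1, 0.24 for Gne, 0.24 for Cmas and -0.33 and -0.39 for the Nans probe sets. With group means taken off, r was 0.28 for Neu1, -0.08 for Gne, 0.08 for Cmas and -0.08 and -0.39 for the Nans probe sets.

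Around the 6 genes, 80 others were listed in 6 groups, and of these genes 62 had a probe set and 41 were tested. Besides genes that handle sialic acid, the groups hold genes of neighbouring pathways. These make or use UDP-GlcNAc, act in the lysosome around Neu1 or make ceramides and gangliosides. In EAMG, 1 rose and 1 fell in DIA, 3 rose and 1 fell in EDL, and 1 rose and 1 fell in EOM. These are 4.88%, 9.76% and 4.88% of those tested, beside 2.68%, 6.59% and 1.5% of all probe sets. The lists count 1 probe set a gene and were chosen with earlier results of these data known, so the shares describe the lists and test nothing. The medians of the listed genes were 0.09, 0.01 and 0.05, and those of all probe sets 0.01, -0.00 and 0.00. Of the 8 calls, 5 were of sialyltransferases, 2 of enzymes of ceramide and ganglioside synthesis and 1 of Ncam1.

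St3gal2, a sialyltransferase that caps gangliosides and O-linked chains, rose in DIA and EDL. In DIA it read 2009, 2894 and 2708 in EAMG and 1101, 1200.3 and 1269 in control, a change of 1.08 (SE 0.14, limma adjusted p = 0.00191). In EDL it read 2369.9, 2171 and 2744 in EAMG and 1702, 1457 and 1345 in control, a change of 0.69 (adjusted p = 0.0137). A second probe set, 1381528_at, rose there by 1.07 (adjusted p = 0.0448) but did not pass in DIA or EOM. By the brighter probe set, the change in EOM was 0.36 and did not pass (adjusted p = 0.274), although the 3 EAMG arrays lay above the control arrays. St3gal5, which makes GM3, the parent of most gangliosides, rose in EDL by 0.63 (adjusted p = 0.014), with 947, 883 and 813 in EAMG and 492, 619.9 and 606 in control. St3gal6, which caps N-linked chains and selectin ligands, fell in EOM by 1.15 (SE 0.17, adjusted p = 0.00327). Its EOM arrays read 1210.4, 1296 and 1163 in EAMG and 2543, 2869.8 and 2736 in control, more than 2-fold apart in the means of 1223 ± 67.1 and 2716 ± 164. In DIA the change of St3gal6 was -0.43 (adjusted p = 0.183). St6galnac6, which sialylates gangliosides, fell in DIA by 0.61 (adjusted p = 0.0485), with 285, 326 and 309 in EAMG and 515, 404 and 486 in control.

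Enzymes before sialic acid is added moved in 2 muscles. Ugcg, which makes glucosylceramide, the base of most gangliosides, fell in EDL by 0.84 (limma adjusted p = 0.0121), with 225, 163 and 187 in EAMG and 319, 352 and 349 in control, all under 400. Cers2, a ceramide synthase that myelin depends on, rose in EOM by 0.83 (adjusted p = 0.0167), with 1137, 958 and 1641 in EAMG and 683, 698 and 667 in control. Schwann cell genes did not pass in EOM (0 of 6, and 0 at an unadjusted p under 0.05), and the list summed to 17740 to 20140 in EOM EAMG and 18090 to 21570 in EOM control. Of 9 genes of surface epithelium, 0 passed in EOM with 3 at an unadjusted p under 0.05, and their sum ranged from 2023 to 5909 in EOM EAMG and from 1198 to 2614 in EOM control. The fat and gland genes, summed above for EOM, lay apart there, with 11090 or more in EAMG and 7554 or less in control. EOM EAMG array 3, the highest for Cers2, also had the highest epithelial and macrophage sums and the lowest muscle sum of the EOM arrays, and without it Cers2 rose by 0.61 (adjusted p = 0.0464). The part of these cells in the change of Cers2 was not tested. Ncam1, the main carrier of polysialic acid and a surface protein that muscle fibres spread over their membrane after denervation, rose in EDL by 1.13 (adjusted p = 0.00146), with 512, 595 and 373 in EAMG and 216, 212 and 235 in control. In EOM its change was 0.59 and did not pass (adjusted p = 0.0581), with the arrays apart, and in DIA it was 0.24 (adjusted p = 0.368).

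Without EDL EAMG array 2, Ncam1 rose by 0.98, St3gal2 by 0.77 and St3gal5 by 0.62 in EDL (limma adjusted p = 0.00533, 0.0282 and 0.0495), and the call of Ugcg was lost at -0.73 (adjusted p = 0.0576). Without the low poly-A arrays, St3gal2 rose by 0.97 in DIA (adjusted p = 0.0132), while St3gal6 fell by 1.19 and Cers2 rose by 1.00 in EOM (adjusted p = 0.00908 and 0.0102). The call of St6galnac6 was lost in 14 of the 18 fits without a single array, with adjusted p up to 0.182. Those of St3gal2 in EDL were lost without EDL EAMG array 3 or EDL control array 2 (up to 0.0646), that of St3gal5 without EDL control array 1 (0.0749) and that of Cers2 without any 1 of the EOM control arrays (up to 0.0757). St3gal6 in EOM, Ncam1 in EDL and St3gal2 in DIA stayed past the threshold in all 18. In fits of each muscle alone, only St3gal6 in EOM of the 8 calls passed, and those of St3gal2 in DIA and Ncam1 in EDL were lost (adjusted p = 0.0716 and 0.102). No change of the 41 genes was shown to differ between muscles. Under limma none of the 41 passed a test of the difference itself, with 8, 5 and 6 at an unadjusted p under 0.05 for EOM against EDL, EOM against DIA and DIA against EDL, and the lowest adjusted p was 0.17, for St3gal6 between EOM and EDL. Among all probe sets, 0.106%, 0.0163% and 0.0163% passed these tests.

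**Figure D4:**
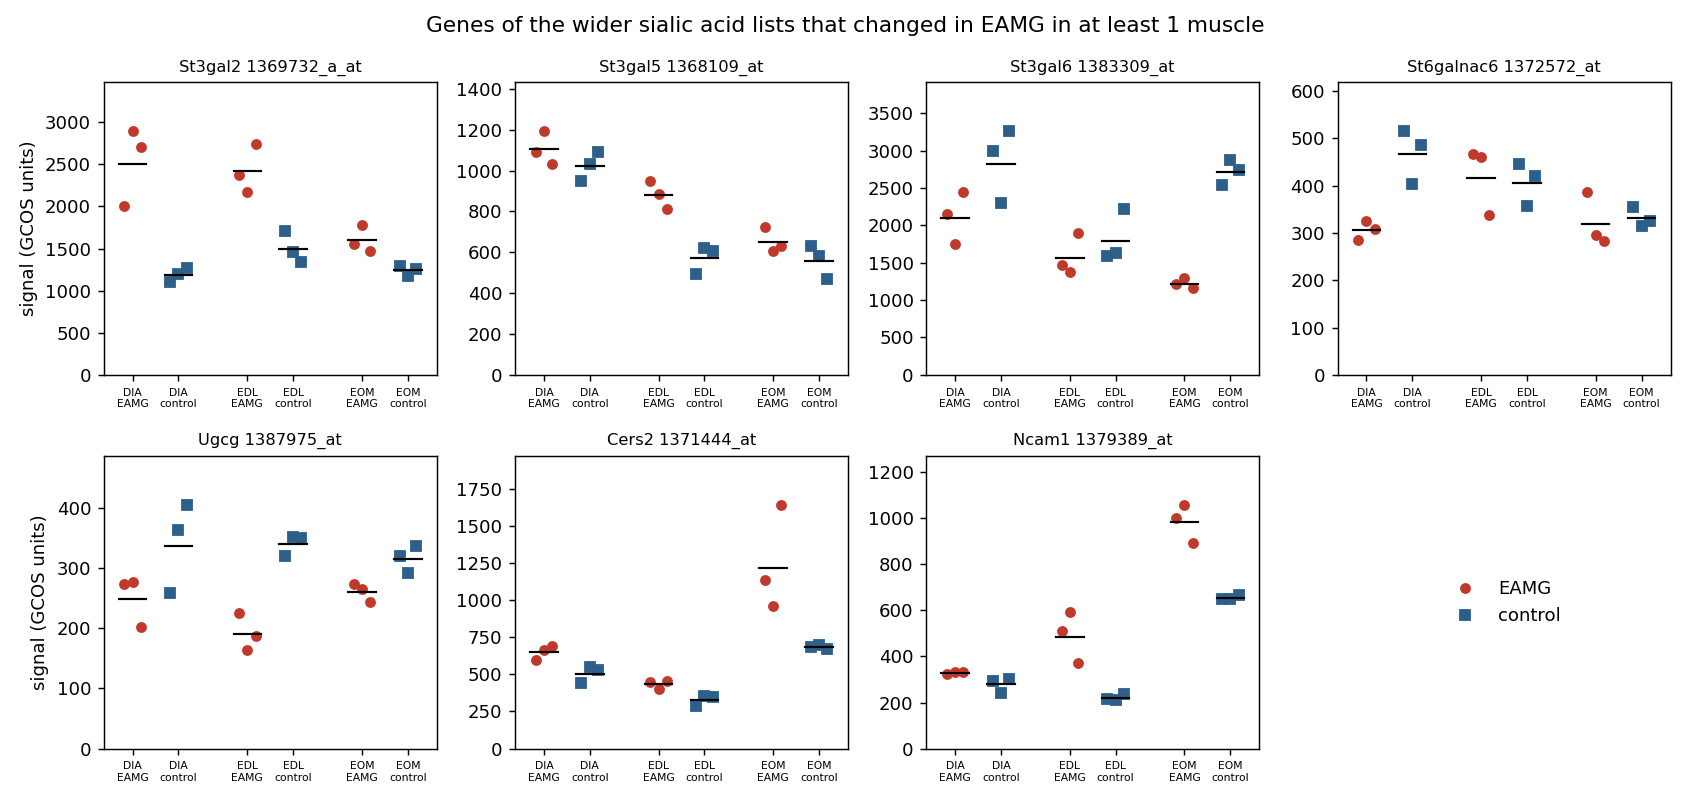
Signal (GCOS units, linear axes from 0) on each array of the 7 genes of the wider lists that passed in EAMG in at least 1 muscle, with EAMG (circles) left of control (squares) and bars at the geometric mean of 3 arrays. St3gal2 sits higher in EAMG in DIA and EDL, and St3gal6 sits lower in EOM, at 1163 to 1296 in EAMG and 2543 to 2870 in control.

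Of the remaining lists, 3 held no gene that passed in EAMG in any muscle. Among the steps between synthesis and use, 4 genes were tested. The largest change in DIA was that of Slc17a5, the carrier that lets free sialic acid out of the lysosome, at 0.62 (limma adjusted p = 0.203), and the largest in EOM that of Siae, a sialic acid O-acetylesterase, at -0.28 (adjusted p = 0.683). Of 7 genes that make or use UDP-GlcNAc, 1 in DIA, 1 in EDL and 0 in EOM had an unadjusted p under 0.05. The largest of their values in DIA was -0.41, for Uap1l1 (adjusted p = 0.119), and in EOM -0.52, for Gnpda2 (adjusted p = 0.637). Of 13 genes of the lysosome around Neu1, 0, 0 and 2 had an unadjusted p under 0.05, and 11 of the 13 were above 0 in DIA, 6 in EDL and 11 in EOM. The largest were 0.35 in DIA for Glb1, a galactosidase (adjusted p = 0.345), and 0.66 in EOM for Gm2a, a cofactor in the breakdown of ganglioside GM2 (adjusted p = 0.62). In EDL the largest values of the 3 lists were -0.45 for Siae, -0.43 for Gnpda1 and -0.26 for Gm2a (adjusted p = 0.277, 0.0948 and 0.791). Cd22, a lectin of B cells that binds sialic acid, was at -0.72 in EOM (adjusted p = 0.167).

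More of the listed genes passed between control muscles than in EAMG. Between EOM and EDL, 13 of the 41 genes were higher in EOM and 1 was lower, which is 34.1% beside 41.4% of all probe sets, with a median of 0.34 beside 0.05. Between EOM and DIA, 4 were higher and 2 lower in EOM (14.6% beside 21.3%), and between DIA and EDL, 10 were higher and 2 lower in DIA (29.3% beside 24.8%). The lysosomal hydrolases Glb1, Fuca1, Aga and Man2b1 were higher in EOM than in EDL by 1.02, 0.94, 0.86 and 0.59 (limma adjusted p = 0.000877, 0.000482, 0.00142 and 0.0129). The same genes were higher in DIA than in EDL by 0.76, 0.86, 0.70 and 0.72 (adjusted p = 0.0125, 0.00247, 0.0115 and 0.00744). Glb1 read 313, 305 and 173 in EDL control, all under 400. Macrophage genes, whose cells are rich in lysosomes, moved with these hydrolases, since 10 of 10 were higher in EOM and 7 of 10 higher in DIA than in EDL. Their summed signal was 7619 to 15760 in EOM control, 7658 to 11170 in DIA control and 2030 to 4528 in EDL control, and their part in the result was not tested. Slc17a5 was higher in EOM than in DIA by 1.03 (limma adjusted p = 0.011) and lower in DIA than in EDL by 0.82 (adjusted p = 0.0341). Its control arrays read 368, 341 and 433 in EOM, 190, 256 and 132 in DIA and 439, 305 and 265 in EDL, most of them under 400.

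Among the sialyltransferases, St3gal1 was lower than in EDL by 1.18 in EOM and by 1.15 in DIA (limma adjusted p = 0.00026 and 0.000868), with 595, 779.8 and 732 in EOM control, 659, 823 and 660.3 in DIA control and 1678, 1572 and 1500 in EDL control. St3gal5 was lower in EOM than in DIA by 0.88 and higher in DIA than in EDL by 0.84 (adjusted p = 0.000174 and 0.00036). St3gal6 was 0.60 higher in EOM and 0.65 higher in DIA than in EDL (adjusted p = 0.0117 and 0.0126). Of 7 ceramide and ganglioside enzymes, 4 were higher in EOM and 3 higher in DIA than in EDL, and none was lower. Cers2, B4galt5 and Cers5 were higher in EOM than in EDL by 1.05, 1.05 and 0.98, and higher in DIA than in EDL by 0.62, 0.87 and 0.72, all past the threshold. In EDL control, Cers2 read 290, 352 and 348 and B4galt5 229, 175 and 206, all under 400. Gfpt2, which starts the hexosamine pathway, was higher in EOM by 0.94 over EDL and 0.81 over DIA (adjusted p = 0.00131 and 0.00773). Ncam1 was higher in EOM by 1.57 over EDL and 1.23 over DIA (adjusted p = 9.7e-07 and 1.74e-05), at 654 ± 9.19 in EOM, 280 ± 32.8 in DIA and 221 ± 12.3 in EDL (SD, n = 3 each). Schwann cells also carry Ncam1. Of 6 Schwann genes, 6 were higher in EOM than in EDL and 5 higher in EOM than in DIA. Of all probe sets, 41.4% and 21.3% passed in these comparisons in either direction. The part of Schwann cells in the result was not tested. Of the 32 calls between control muscles in these lists, 22 held whichever single array was left out. Among the genes named here, calls over EDL were lost without EDL control array 1 for St3gal6 in EOM (limma adjusted p = 0.0542) and DIA and for Cers2 in DIA (0.0582), for Man2b1 in EOM without EDL control array 3 (0.0683), and for St3gal6 and Aga in DIA without DIA control array 3 (0.0585 and 0.0525). The call of Cers2 in DIA was also lost without DIA control array 2. Those of Slc17a5 were lost without DIA control array 3 (0.0616 against EOM and 0.151 against EDL), and that against EDL also without DIA control array 1 or EDL control array 1 or 2. With no signal minimum, 23 of the 32 calls held. Among the genes named here, the call of Man2b1 between EOM and EDL was lost (limma adjusted p = 0.0522). Between DIA and EDL, those of Slc17a5, St3gal6, Glb1, Aga and Cers2 were lost (0.111, 0.0575, 0.0551, 0.0527 and 0.0581).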

How the data were processed

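Expression was measured on 18 one-colour Affymetrix rat arrays, with 3 in each group. The deposited values are intensity signals from GCOS 2.0, with which the authors summarized perfect-match and mismatch probes and scaled all arrays to one target. Symbols came from the platform annotation, which gave 1 symbol to 20826 of 31042 probe sets other than the 57 controls, several to 436 and none to 9780. Of those with 1 symbol, 20758 matched RefSeq by Entrez ID. Signals were taken to log2 with no further scaling. Probe sets at 400 or more on at least 1 array were fitted in limma 3.58.1 (R 4.3.3) with 1 mean per group and a Benjamini-Hochberg threshold of 0.05. The fit was tested on simulated data.

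Members and gene lists were chosen with earlier results of these data known. Every member probe set is named. In each list and comparison up to 4 genes with the largest change that passed are named, or the largest where none passed, and the 5 genes most like Neu2. A listed gene is given by its brightest probe set. Per the methods, the replicates of a group came from repeat runs of the experiment, and the labels do not say whether equal array numbers mark 1 run. Alternatives were other minimums, quantile normalization, 100 added to each signal, limma-trend, array weights, a replicate block, fits of only the groups compared, and fits without single arrays or the low poly-A pair. Protein sequences were not used here. Figures used python 3.11.15 and matplotlib 3.10.9.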

Additional observations from a re-analysis of the deposited data

How the results depend on the processing

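The change of Neu2 in EAMG kept its direction in all 27 alternatives. It spanned -1.54 to -1.24 for DIA, -2.24 to -1.57 for EDL and -1.31 to -1.07 for EOM. Another minimum, limma-trend, the replicate block, fits of only the groups compared and fits without arrays of other muscles cannot move it. Only the remaining settings could change its size or direction. Leaving out 1 array at a time gave -1.54 to -1.24, -2.24 to -1.57 and -1.31 to -1.12. No result reversed among those called.

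Counts of calls depended on the setting, and beyond the number of probe sets or arrays in a fit the cause was not tested. With no signal minimum, 1 of the 41 listed genes passed in EAMG in each of DIA, EDL and EOM and 7 passed between DIA and EDL. Of all probe sets, 36, 158 and 39 passed in EAMG in DIA, EDL and EOM and 1952 between DIA and EDL, against 328, 806, 183 and 3040. No member probe set then passed between EOM and DIA or between DIA and EDL (0 and 0), and Neu2 lay at -1.03 between EOM and DIA with an adjusted p of 0.0693. In fits of only the groups compared, 0, 0 and 1 listed genes passed in DIA, EDL and EOM, 14 and 3 probe sets passed in DIA and EDL, 11 listed genes passed between EOM and DIA, and 1 member passed between EOM and EDL, namely Neu2 at -0.49 (adjusted p = 0.0491). With array weights, 26 listed genes and 1 member passed between EOM and EDL, 11 listed genes between EOM and DIA, and 466 and 4086 probe sets in EOM EAMG and between EOM and DIA. In DIA EAMG, 1 listed gene passed with quantile normalization, with limma-trend and without the low poly-A arrays, where 51 probe sets passed. With 400 required on 3 arrays, 0 members passed between DIA and EDL, because Nans 1372402_at was then not tested.

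Leaving out 1 array gave 1 to 2, 3 to 5 and 1 to 3 listed genes in EAMG in DIA, EDL and EOM, and 13 to 17, 4 to 8 and 9 to 13 between EOM and EDL, EOM and DIA and DIA and EDL. Over all probe sets these counts were 63 to 805, 176 to 1279 and 50 to 213 in EAMG, and 4076 to 5140, 1900 to 2718 and 2092 to 3124 between control muscles. Member counts were 0 to 0, 1 to 4 and 0 to 1. Baseline Neu2 was -0.64 to -0.32, -1.13 to -0.94 and 0.39 to 0.71 in the same order.

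Same-numbered EAMG and control arrays of a muscle had deviations correlated above 0.1 in 7 of 9 pairs, all 3 of those in EDL among them, and over all groups in 20 of 45. Not every pair did, and the labels do not tie the numbers to a run, so the tests are given without the block. With the replicate block, which cannot move these changes, Neu2 stayed at -1.44, -2.0 and -1.22 in DIA, EDL and EOM. In EAMG 457, 1050 and 228 probe sets passed with it, and no call of a member changed. Among listed genes the 8 calls in EAMG were kept, and Cers5 in EDL at 0.47 (adjusted p = 0.0409) and Psap between EOM and EDL at -0.41 (adjusted p = 0.041) were gained. Signals under 400, as for Neu3, limit what could be seen of the dim genes.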
